A study of Arabidopsis thaliana with 30 samples.

Results

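The transcript difference that loss of EIN2 made in whole seedlings of Arabidopsis thaliana was measured 3 h after the seedlings had been covered with liquid medium. The tested group was ein2-5, a loss-of-function mutant in the Col-0 background, and it was set against Col-0 wild type. Both groups were grown on agar plates with Murashige and Skoog medium (MS) and sucrose, were 12 days old when covered with liquid MS, and differed by label in genotype only. Each group held 3 libraries, so the comparison used 6 of the 30 libraries of the series, picked by their labels. Further ein2-5 and wild-type seedlings, used below only to set the 3 h values beside other conditions, were left untreated, were covered with MS for 24 h, or were covered for 3 h or 24 h with MS plus antimycin A (AA), a respiratory inhibitor, at 20 µM.

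Ethylene is a gaseous plant hormone whose pathway runs largely through repression. Its receptors at the endoplasmic reticulum (ETR1, ERS1, ETR2, ERS2 and EIN4) keep the kinase CTR1 active in air, and CTR1 holds EIN2 inactive. When ethylene binds the receptors, EIN2 is released, and a piece of it carries the signal to the nucleus, where the transcription factors EIN3 and EIL1 escape breakdown by the F-box proteins EBF1 and EBF2. Several genes that EIN3 switches on, such as EBF2, ETR2 and ERS1, dampen the pathway in turn. In a submerged seedling ethylene escapes more slowly, so the pathway is known as an early signal of flooding.

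The 6 libraries held 23.0 to 25.9 M counted read pairs each (all 30: 21.2 to 32.6 M, median 24.3 M). Levels are given as CPM, the counts scaled to library size, and, within a gene, for replicates 1, 2 and 3 in that order, and differences are log2 fold changes (log2 FC) ± SE of ein2-5 over wild type from 1 fit to all 30 libraries. A gene was called at an adjusted p under 0.05 in edgeR's quasi-likelihood test. Whether replicates came from different plates or cultures is not in the labels, and p-values measure the spread between these samples only. Replicate 3 of ein2-5 stood apart: 1139 genes lay more than 2-fold from the mean of its partners, against 713 and 660 for ein2-5 replicates 1 and 2 and 585 to 617 for the wild-type libraries, and the highest library of each of the other 8 groups had 520 to 809. Results are therefore also given without it. Markers of both organs of a seedling were present: all 22 leaf photosynthesis genes were above 1149 CPM in each of the 6 libraries, and of 19 root genes only ESB1 was at 0, in ein2-5 replicate 3.

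In ein2-5, 2215 of 21256 genes tested (10.4%) were called, 1247 higher (5.87%) and 968 lower (4.55%) than in wild type. At least 2-fold differences were called for 415 genes (1.95%), of which 278 were higher and 137 lower (1.31% and 0.645%). Over all called genes the excess of higher over lower calls rested on the processing: RLE factors gave 1112 higher and 1135 lower, DESeq2 1259 and 1295, and a filter of 1 CPM 1124 and 1152. At 2-fold or more the excess remained, with 264 higher and 144 lower, 285 and 155, and 253 and 138 in the same order. The median log2 FC over all genes tested was 0.02. Without ein2-5 replicate 3, 1289 of 21407 genes (6.02%) were called, 746 higher (3.48%) and 543 lower (2.54%), and 1136 genes were called both with and without it, all with the same sign. Leaving out wild-type replicate 2 or 3 gave 1260 and 1280 called genes, and leaving out ein2-5 replicate 1 or 2 or wild-type replicate 1 gave 2228 to 2380. A fit of only the 6 libraries called 771 of 20383 genes tested, 447 higher and 324 lower, and its list counts are to be read beside these. Genes are also described below in 27 lists of known pathways and markers, which held 416 genes, 407 of them past the filter on low counts. Each list count of the main fit is to be read beside the 5.87% of all genes that were higher and the 4.55% that were lower. A count of only 1 or 2 members is not read as a result about its list. In bulk seedlings, fewer cells of a type and less RNA per cell cannot be told apart.

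**Figure D1:**
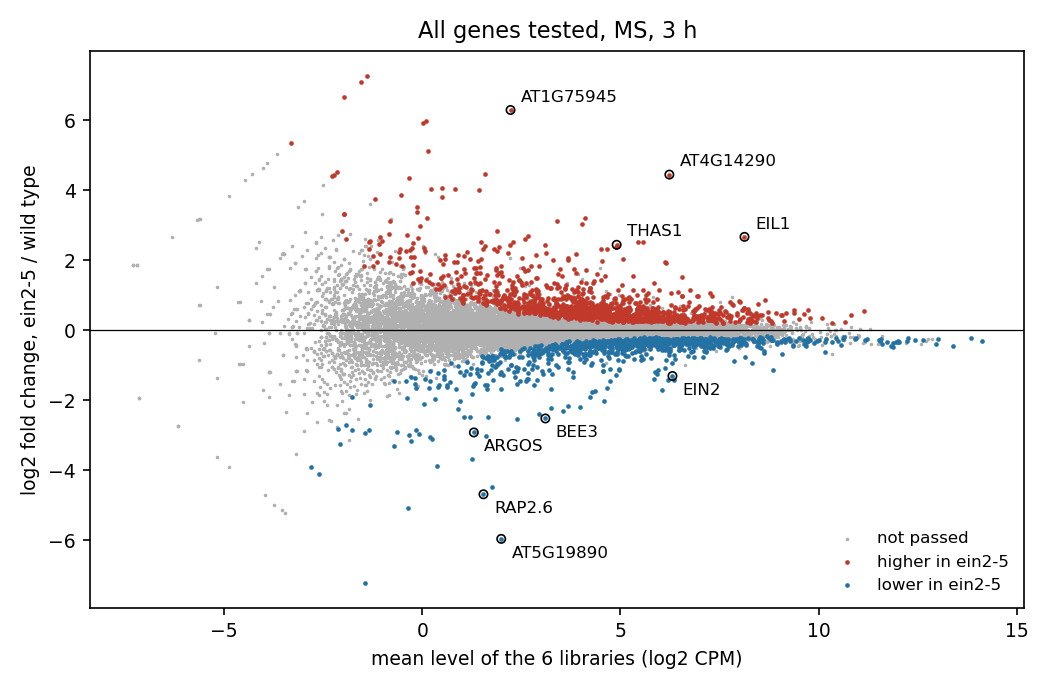
Each point is 1 of 21255 genes with reads in the 6 libraries: the x axis gives the mean level (log2 CPM) and the y axis the log2 fold change of ein2-5 over wild type; red genes were called higher and blue genes lower in ein2-5. AT1G75945, AT4G14290 and EIL1 stand far above the other genes of their level, and AT5G19890, RAP2.6 and BEE3 far below.

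EIN2 itself (AT5G03280) checked the labels. It had 45.8, 48.7 and 42.6 CPM in ein2-5, against 104, 120.0 and 116 CPM in wild type (log2 FC -1.31 ± 0.09, adjusted p = 2.4e-11). All 3 ein2-5 libraries lay under all 3 wild-type libraries, and transcript remained in each of them. Downstream, the paired transcription factors moved apart. EIN3 (AT3G20770) had 41.3, 49.1 and 42.1 CPM in ein2-5 and 113, 119 and 123 CPM in wild type (log2 FC -1.42 ± 0.08, adjusted p = 1.7e-13). EIL1 (AT2G27050), its closest relative, had 395, 558 and 500.0 CPM in ein2-5 and 71.9, 77.6 and 78.6 CPM in wild type, a 6.37-fold rise (log2 FC 2.67 ± 0.15, adjusted p = 6.6e-14). The groups were far apart for both genes, low in every ein2-5 library for EIN3 and high in every one for EIL1. The F-box genes that remove both proteins also went opposite ways. EBF2 (AT5G25350) had 28.8, 33.2 and 33.8 CPM in ein2-5 and 80.7, 87.0 and 84.4 CPM in wild type (log2 FC -1.40 ± 0.14, adjusted p = 5e-08). EBF1 (AT2G25490) had 157, 171 and 195 CPM in ein2-5, against 112, 118 and 121 CPM in wild type (log2 FC 0.57 ± 0.07, adjusted p = 2.6e-06). EBF2 overlaps AT5G25340 and AT5G03965, and since strand was not used in counting, reads of overlapping genes cannot be told apart.

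The receptor genes did not all fall. ETR2 (AT3G23150) had 7.55, 8.91 and 7.28 CPM in ein2-5, against 28.1, 28.2 and 33.4 CPM in wild type (log2 FC -1.92 ± 0.16, adjusted p = 4.8e-10). ERS1 (AT2G40940, which overlaps AT2G40935) had 28.3, 29.2 and 40.8 CPM in ein2-5 and 60.5, 59.4 and 57.3 CPM in wild type, a fall (log2 FC -0.85 ± 0.11, adjusted p = 1.6e-06). Replicate 3 was the highest ein2-5 library but still lay below wild type, and without that library the difference was -1.04 ± 0.10. ERS2 also fell (log2 FC -1.06 ± 0.16), as did CTR1 (log2 FC -0.40 ± 0.08). These and the remaining receptors are named outside the rule for named genes, with their values known. ETR1 had 35.1, 32.8 and 33.1 CPM in ein2-5 and 36.2, 36.1 and 31.9 CPM in wild type (adjusted p = 0.82). EIN4 had 19.8, 23.3 and 32.0 CPM in ein2-5 and 25.3, 26.0 and 24.9 CPM in wild type (adjusted p = 0.95). Of the 16 perception and signalling genes, 2 rose and 8 fell, beside 5.87% and 4.55% of all genes. Their median log2 FC was -0.45, and the fallers numbered 7 or 8 with any 1 library left out. Both of the risers, EIL1 and EBF1, were called with each library left out in turn.

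**Figure D2:**
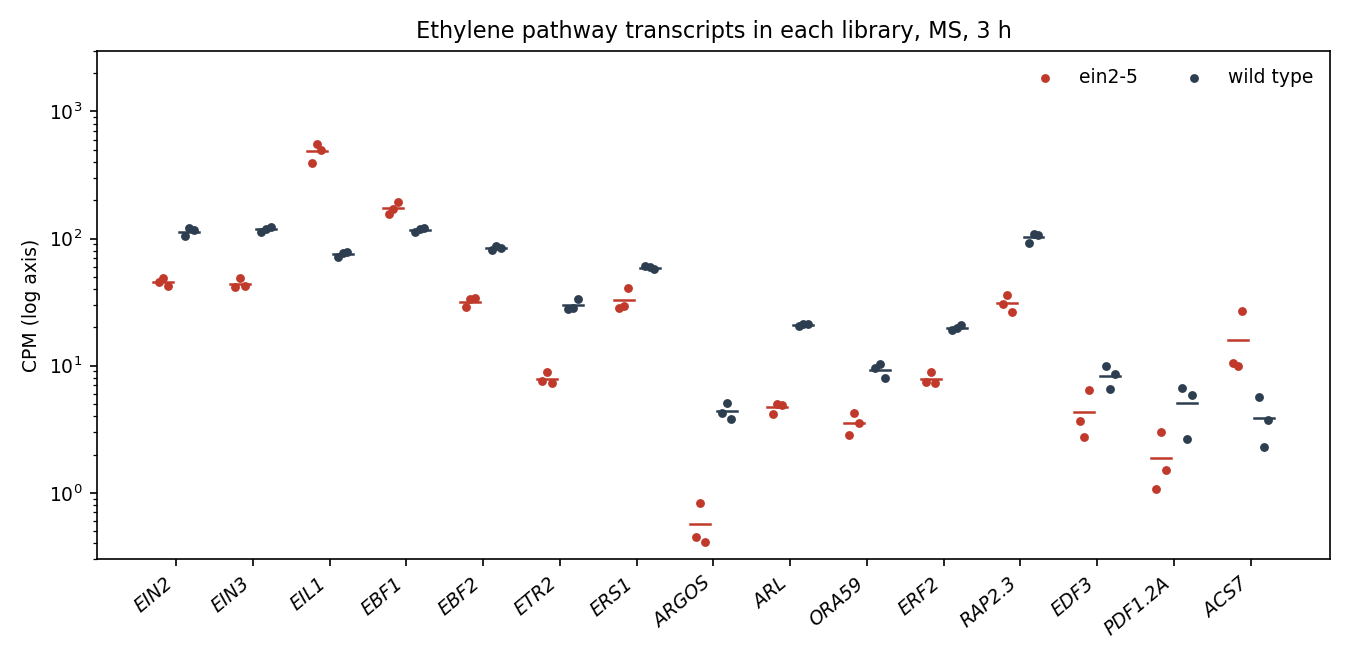
Points are single libraries, 3 of ein2-5 (red, left) and 3 of wild type (dark, right) for each gene, bars are group means, and the y axis is CPM on a log scale. EIL1, EBF1 and ACS7 are higher in ein2-5, and the groups overlap for PDF1.2A. The genes shown were picked, and EIL1 and ARL also met a rule that required no overlap, so their separation says nothing about all genes.

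Of 18 regulators known to be induced by ethylene, 7 fell in ein2-5 and 0 rose, beside 4.55% and 5.87% of all genes. Their median log2 FC was -0.46, and 7 fell and 0 rose with any 1 of the 6 libraries left out. ARGOS (AT3G59900), which promotes organ growth and lowers ethylene sensitivity, had 0.452, 0.838 and 0.411 CPM in ein2-5 and 4.26, 5.04 and 3.80 CPM in wild type (log2 FC -2.92 ± 0.34, adjusted p = 5.1e-07). Its relative ARL (AT2G44080) had 4.19, 4.99 and 4.93 CPM in ein2-5, against 20.5, 21.4 and 21.2 CPM in wild type (log2 FC -2.16 ± 0.14, adjusted p = 5e-12). Every ein2-5 library was well under the wild-type range for both. RAP2.3 (AT3G16770), an ethylene response factor (ERF) of the group that senses oxygen, had 30.4, 36.1 and 26.4 CPM in ein2-5 and 92.0, 108 and 106 CPM in wild type (log2 FC -1.72 ± 0.27, adjusted p = 5.9e-05). The activators ORA59 (AT1G06160, log2 FC -1.39 ± 0.19) and ERF2 (AT5G47220, log2 FC -1.34 ± 0.18) fell as well, without overlap of libraries. Among the 4 EDF genes only EDF3 (AT3G25730) was called: it had 3.69, 2.74 and 6.46 CPM in ein2-5 and 9.90, 6.55 and 8.57 CPM in wild type (log2 FC -0.96 ± 0.22, adjusted p = 0.0036), and ein2-5 replicate 3 came close to the lowest wild-type one. EDF1 (0.11), EDF2 (-0.19) and EDF4 (-0.04) were not called, nor was HLS1 (0.10), which shapes the apical hook. ERF1, a direct EIN3 target, had 0.123, 0.267 and 0.329 CPM in ein2-5 and 0.852, 0.446 and 0.591 CPM in wild type, low throughout, and was not called (adjusted p = 0.27).

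Among defence genes under ERF control, the plant defensin genes of the PDF1.2 group were low in both genotypes. PDF1.2C (AT5G44430) had 0.0410, 0.267 and 0.164 CPM in ein2-5 and 3.69, 1.204 and 2.36 CPM in wild type (log2 FC -3.89 ± 0.91, adjusted p = 0.0048). PDF1.2B (AT2G26020) had 0.616, 0.533 and 1.15 CPM in ein2-5 and 3.81, 1.43 and 4.05 CPM in wild type (log2 FC -2.02 ± 0.48, adjusted p = 0.0055). The libraries of the genotypes did not overlap for either, but they did for PDF1.2A (AT5G44420), with 1.07, 3.01 and 1.52 CPM in ein2-5 and 6.70, 2.63 and 5.87 CPM in wild type (log2 FC -1.43 ± 0.47, adjusted p = 0.046). Its call was lost when a single library was left out (adjusted p = 0.15 without ein2-5 replicate 1, 0.16 without ein2-5 replicate 3, 0.16 without wild-type replicate 1 and 0.15 without wild-type replicate 3). Of 11 genes tested, 3 fell and 0 rose, with a median log2 FC of -0.33, or of -0.91 without ein2-5 replicate 3. Basic chitinase CHI-B (AT3G12500) had 76.5, 80.8 and 80.8 CPM in ein2-5 and 67.7, 70.7 and 73.5 CPM in wild type (adjusted p = 0.40), and the hevein-like HEL (AT3G04720) had 76.6, 94.1 and 118 CPM in ein2-5 and 135, 116 and 113 CPM in wild type (adjusted p = 0.22).

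Genes of ethylene synthesis differed by step. Among the oxidases of the last step, ACO5 (AT1G77330, which overlaps AT1G77320) had 19.3, 20.6 and 19.2 CPM in ein2-5 and 45.0, 43.7 and 39.2 CPM in wild type (log2 FC -1.12 ± 0.12, adjusted p = 2e-07). Every ein2-5 library lay far below every wild-type one. Among the synthases of the precursor 3 rose. ACS7 (AT4G26200) had 10.5, 9.98 and 27.0 CPM in ein2-5 and 5.64, 2.27 and 3.72 CPM in wild type (log2 FC 2.02 ± 0.36, adjusted p = 0.00035). ACS11 (AT4G08040) had 3.32, 2.70 and 6.79 CPM in ein2-5 and 1.42, 1.16 and 1.06 CPM in wild type (log2 FC 1.81 ± 0.35, adjusted p = 0.00068). Replicate 3 was the highest ein2-5 library for both, and without it the differences were 1.38 ± 0.33 (adjusted p = 0.0084) and 1.303 ± 0.34 (adjusted p = 0.016). In all, 3 of 13 synthesis genes rose, or 2 without ein2-5 replicate 3 or wild-type replicate 2 or 3, and 3 fell.

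Promoters are shown for 5 genes that were lower in ein2-5, because EIN3 and ERF proteins are known to bind short sequences there. Each is the 300 bases before the gene start in RefSeq TAIR10.1, 5′ to 3′ on the gene's strand. Capitals mark ATGNANCT, which covers sequences that EIN3 binds, and GCCGCC, the core of the GCC box that ERF proteins bind, on either strand. ERS1 (chr2:17087327-17087626, minus strand) holds 2 overlapping ATGNANCT matches, EDF3 (chr3:9395972-9396271, plus strand) 2 separate ones, the defensin gene PDF1.2A (chr5:17907639-17907938, minus strand) 1 GCCGCC match, and AACT1 (chr5:24608305-24608604, plus strand) 2 of them. The promoter of the peroxidase gene AT5G19890 (chr5:6725967-6726266, minus strand) holds 1 of each. The 5 genes were set outside any rule and all hold a match, so they do not show how common matches are. In the same window EBF2, ETR2, ARGOS, ARL, BEE3, RAP2.6, HAK5 and PRP1, also lower in ein2-5, hold neither sequence. Other fallers hold 1 match, such as EIN3 and AT1G49570 (ATGNANCT) and ORA59 (GCCGCC).
ERS1: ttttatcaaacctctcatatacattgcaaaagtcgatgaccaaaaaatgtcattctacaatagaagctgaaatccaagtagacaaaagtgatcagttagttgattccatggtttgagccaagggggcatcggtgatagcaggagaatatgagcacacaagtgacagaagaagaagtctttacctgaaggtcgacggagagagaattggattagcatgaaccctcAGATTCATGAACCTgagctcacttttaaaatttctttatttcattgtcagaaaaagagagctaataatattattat
EDF3: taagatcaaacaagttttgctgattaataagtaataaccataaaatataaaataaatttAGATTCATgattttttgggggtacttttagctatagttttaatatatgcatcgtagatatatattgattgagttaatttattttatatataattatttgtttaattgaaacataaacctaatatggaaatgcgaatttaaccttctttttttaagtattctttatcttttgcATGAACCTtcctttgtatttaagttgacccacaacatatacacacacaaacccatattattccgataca
PDF1.2A: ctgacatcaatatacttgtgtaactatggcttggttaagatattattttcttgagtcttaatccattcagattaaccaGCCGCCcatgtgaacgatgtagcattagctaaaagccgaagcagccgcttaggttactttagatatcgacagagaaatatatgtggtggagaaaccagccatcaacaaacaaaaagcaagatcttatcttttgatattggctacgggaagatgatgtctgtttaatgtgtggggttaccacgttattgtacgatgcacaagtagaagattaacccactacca
AACT1: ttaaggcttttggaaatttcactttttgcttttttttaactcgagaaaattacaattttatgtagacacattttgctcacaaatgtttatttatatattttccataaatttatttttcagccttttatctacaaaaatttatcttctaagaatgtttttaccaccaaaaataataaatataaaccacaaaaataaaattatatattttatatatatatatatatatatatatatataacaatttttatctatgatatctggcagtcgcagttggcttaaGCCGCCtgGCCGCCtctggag
AT5G19890: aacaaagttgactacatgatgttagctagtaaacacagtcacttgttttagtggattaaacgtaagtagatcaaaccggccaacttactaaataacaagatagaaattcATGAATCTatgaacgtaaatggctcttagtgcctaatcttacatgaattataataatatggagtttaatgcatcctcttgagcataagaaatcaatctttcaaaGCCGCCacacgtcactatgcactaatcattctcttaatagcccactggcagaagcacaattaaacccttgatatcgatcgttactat
ATGNANCT was in 17.01% of the promoters of 964 genes called lower in ein2-5 and 15.2% of 1247 called higher, beside 15.0% of all 21129 genes tested with a RefSeq start. GCCGCC was in 3.22% of those called lower and 1.04% of those called higher, beside 2.32% of all. Among 137 genes lower by at least 2-fold, 7 (5.11%) held GCCGCC. A match describes the letters and is not a binding site, and the shares were not tested.

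The largest rises by the naming rule lay mostly outside the ethylene pathway. The rule takes only genes without overlap of libraries, so the separation of the genotypes is not a further result for them. AT1G75945 (chr1:28515245-28515916, minus strand), an uncharacterized protein, had 7.72, 10.4 and 9.70 CPM in ein2-5 and 0.325, 0 and 0 CPM in wild type (log2 FC 6.30 ± 0.52, adjusted p = 6.5e-10), so that only a single wild-type library held any count, and the log2 FC ran from 5.73 to 10.9 over the alternatives. AT4G14290 (chr4:8225294-8230299, minus strand), annotated as an alpha/beta hydrolase, had 142, 139.9 and 149.9 CPM in ein2-5 and 7.02, 6.29 and 6.42 CPM in wild type, a 21.9-fold rise (log2 FC 4.45 ± 0.14, adjusted p = 9.9e-20). The 3 libraries of each genotype were close together and the genotypes far apart. AT5G62130 (chr5:24950264-24953362, minus strand), a Per1-like protein, had 77.8, 81.8 and 84.0 CPM in ein2-5 and 12.1, 14.5 and 15.4 CPM in wild type (log2 FC 2.54 ± 0.10, adjusted p = 1.6e-17). AT1G52820, a 2-oxoglutarate and iron dependent oxygenase that overlaps AT1G52825, rose to 18.8, 18.7 and 19.7 CPM in ein2-5, against 1.74, 2.05 and 2.70 CPM in wild type (log2 FC 3.13 ± 0.24, adjusted p = 1.1e-10). A pair of genes annotated as MD-2-related lipid recognition proteins, AT2G16005 (log2 FC 4.01 ± 0.52) and AT5G23840 (log2 FC 2.83 ± 0.26), also rose, as did AT1G66800, an NAD(P)-binding protein (log2 FC 2.69 ± 0.23), and AT1G26390, a berberine bridge enzyme-like oxidase (log2 FC 2.601 ± 0.41). AT1G26390 was the least even of these, with 6.69, 18.9 and 5.43 CPM in ein2-5 and 1.79, 1.03 and 2.28 CPM in wild type.

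Genes of the thalianol and marneral clusters, whose triterpenes are known mainly from roots, rose together. All 7 tested were called, with a median of 2.40 beside 0.02 for all genes, and all 7 were called with any 1 library left out and in the fit of only the 6 libraries. THAS1 (AT5G48010, chr5:19456837-19461706, plus strand), the synthase of thalianol, had 50.9, 47.8 and 53.3 CPM in ein2-5 and 10.63, 8.16 and 9.08 CPM in wild type (log2 FC 2.44 ± 0.12, adjusted p = 9.1e-15). THAD (AT5G47990), a cytochrome P450 of the same cluster, had 49.7, 50.2 and 50.01 CPM in ein2-5 and 9.54, 9.59 and 9.71 CPM in wild type (log2 FC 2.38 ± 0.13). THAH rose by 2.31 ± 0.15 and the acyltransferase THAA1 by 2.40 ± 0.33 on the log2 scale. MRN1 (AT5G42600, chr5:17053453-17058245, plus strand), the synthase of marneral, had 4.06, 5.67 and 7.48 CPM in ein2-5 and 0.122, 0.535 and 0.127 CPM in wild type (log2 FC 4.46 ± 0.57, adjusted p = 2.6e-06), and its neighbour CYP71A16 rose by 2.45 ± 0.17 on the log2 scale. The libraries of the genotypes did not overlap for any of them, but the naming rule itself required this of THAS1, MRN1 and CYP71A16. For these it is not a further result. Of 19 root marker genes 0 rose and 2 fell, or 1 fell without ein2-5 replicate 1 or 2 or any wild-type library, and their summed level was 167, 183 and 195 CPM in ein2-5 and 219, 217 and 194 CPM in wild type.

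The largest falls by the same rule included a pair of class III peroxidases, enzymes of the cell wall. AT5G19890 (chr5:6724076-6725966, minus strand) had 0.369, 0 and 0 CPM in ein2-5 and 8.77, 8.12 and 6.63 CPM in wild type (log2 FC -5.97 ± 0.59, adjusted p = 2.8e-08). That fold rests on the counts of a single ein2-5 library and is not precise: it ran from -10.6 without ein2-5 replicate 1 to -5.37 without ein2-5 replicate 2. AT1G49570 (chr1:18346958-18349049, plus strand) had 0.205, 0.0762 and 0.576 CPM in ein2-5 and 5.84, 8.07 and 5.41 CPM in wild type (log2 FC -4.49 ± 0.36, adjusted p = 4.6e-10). Both were nearly silent in the mutant. RAP2.6 (AT1G43160), an ERF of stress responses, had 0.246, 0.305 and 0.0822 CPM in ein2-5 and 6.37, 5.40 and 5.11 CPM in wild type (log2 FC -4.69 ± 0.49, adjusted p = 6.8e-08). BEE3 (AT1G73830), a helix-loop-helix factor of brassinosteroid responses, had 2.42, 2.51 and 2.71 CPM in ein2-5 and 14.0, 15.4 and 14.6 CPM in wild type (log2 FC -2.52 ± 0.13, adjusted p = 7.2e-15). HAK5 (AT4G13420), the high-affinity potassium transporter of roots, had 1.56, 1.68 and 1.40 CPM in ein2-5 and 11.2, 7.76 and 7.98 CPM in wild type (log2 FC -2.53 ± 0.24, adjusted p = 7.9e-09). For each of these 3 genes every ein2-5 library was several-fold below the lowest wild-type library, where the rule itself required that libraries not overlap. The root hair wall protein PRP1 (AT1G54970) fell by 2.23 ± 0.25 on the log2 scale, and AACT1 (AT5G61160), an acyltransferase, by 2.31 ± 0.40, with 2.299, 3.28 and 6.33 CPM in ein2-5 and 26.4, 17.2 and 15.3 CPM in wild type. Also lower were AT5G50335, an uncharacterized protein (log2 FC -3.02 ± 0.45), and AT5G40590, a cysteine/histidine-rich C1 domain protein (log2 FC -2.39 ± 0.41). AT5G62280, of the DUF1442 family (log2 FC -2.19 ± 0.17), and the hydrolase AT5G17780 (log2 FC -2.48 ± 0.24) complete the rule's 12.

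Several defence lists held many risers beside the 5.87% of all genes. Of 11 genes of ER bodies and jacalin lectins, the beta-glucosidase store that Brassicaceae use against attackers, 8 rose and 0 fell (median 0.46), and 8 or 9 rose with any 1 library left out, but 5 in the fit of only the 6 libraries. PYK10 (AT3G09260), the main beta-glucosidase of ER bodies, had 2432, 2697 and 2962 CPM in ein2-5 and 2042, 1735 and 1776 CPM in wild type (log2 FC 0.54 ± 0.09, adjusted p = 8.1e-05). NAI1 (AT2G22770), the factor that drives ER body formation, had 23.2, 23.0 and 23.9 CPM in ein2-5 and 15.5, 16.1 and 15.7 CPM in wild type (log2 FC 0.57 ± 0.11, adjusted p = 0.00064). These were small differences with no overlap of libraries. Of 21 glucosinolate and camalexin genes, 10 rose and 0 fell (median 0.38), with 6 risers without ein2-5 replicate 3 or wild-type replicate 3 and 7 to 13 without another library. CYP71A12 (AT2G30750), a P450 of indole defence compounds, had 21.6, 39.1 and 35.7 CPM in ein2-5 and 10.1, 9.45 and 11.8 CPM in wild type (log2 FC 1.62 ± 0.17, adjusted p = 9.9e-08), and CYP79B2 (AT4G39950), which starts that branch, rose by 0.97 ± 0.13 on the log2 scale (adjusted p = 6.6e-06).

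Among genes of salicylic and pipecolic acid immunity, 8 of 19 rose and 0 fell (median log2 FC 0.70). The risers were 5 without ein2-5 replicate 2, 4 without wild-type replicate 2 and 6 to 11 without another library. EDS5 (AT4G39030), which exports the salicylic acid precursor from plastids, had 15.3, 19.5 and 26.9 CPM in ein2-5 and 10.3, 8.47 and 9.37 CPM in wild type (log2 FC 1.13 ± 0.15, adjusted p = 5e-06). PBS3 (AT5G13320), the next enzyme of that route, had 6.24, 10.1 and 16.6 CPM in ein2-5 and 3.57, 3.97 and 4.27 CPM in wild type (log2 FC 1.48 ± 0.28, adjusted p = 0.00056). FMO1 (AT1G19250), which makes the mobile signal N-hydroxypipecolic acid, had 4.06, 4.72 and 8.59 CPM in ein2-5 and 1.91, 1.43 and 2.196 CPM in wild type (log2 FC 1.64 ± 0.34, adjusted p = 0.0015). The groups did not overlap for these 3 genes, though their levels were low. ICS1, the first enzyme of the route, had 20.6, 22.8 and 28.0 CPM in ein2-5 and 18.7, 15.1 and 18.7 CPM in wild type and was not called (adjusted p = 0.06). The late markers were carried by single libraries: PR1 had 0.780, 22.8 and 0.781 CPM in ein2-5 and 4.75, 0.178 and 15.2 CPM in wild type (adjusted p = 0.91), and PR2 (AT3G57260), although called (log2 FC 3.197 ± 0.89, adjusted p = 0.018), had 4.31, 78.0 and 10.9 CPM in ein2-5 and 5.52, 0.535 and 4.01 CPM in wild type. The call of PR2 was lost without 1 of 3 libraries (adjusted p = 0.44 without ein2-5 replicate 2, 0.11 without wild-type replicate 2 and 0.067 without wild-type replicate 3).

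The counts of several stress lists fell when single libraries were left out. Calls over all genes fell as well, from 2215 to 1289 without ein2-5 replicate 3 and to 1260 and 1280 without wild-type replicate 2 and 3. The share of all genes called higher was 5.87%, or 3.48% without ein2-5 replicate 3. Of 14 heat shock genes, 7 rose and 0 fell (median 1.06), but 2 rose without ein2-5 replicate 3 and 3 without wild-type replicate 2 or 3. HSP70-4 (AT3G12580), a cytosolic chaperone, had 55.6, 54.0 and 149 CPM in ein2-5 and 42.4, 42.6 and 32.3 CPM in wild type (log2 FC 1.14 ± 0.22, or 0.48 ± 0.13 without that library, adjusted p = 0.017). HSP101 (AT1G74310), which dissolves protein aggregates, had 18.8, 20.6 and 32.7 CPM in ein2-5 and 15.7, 16.2 and 11.95 CPM in wild type (log2 FC 0.72 ± 0.15, or 0.42 ± 0.13 without it, adjusted p = 0.037). In both genes replicate 3 was the highest library, and the other ein2-5 libraries still lay above wild type. The summed level of the list was 131, 132 and 314 CPM in ein2-5 and 108, 104.5 and 86.5 CPM in wild type.

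Of 20 touch and early stress genes, 6 rose and 0 fell (median 0.58), 1 rose without ein2-5 replicate 3 and 3 rose without wild-type replicate 2 or 3. TCH2 (AT5G37770, which overlaps AT5G37760), a calmodulin-like protein, was the 1 that kept its call without ein2-5 replicate 3: it had 25.4, 23.8 and 37.2 CPM in ein2-5 and 17.61, 15.0 and 18.03 CPM in wild type (log2 FC 0.77 ± 0.14, adjusted p = 0.00031). TCH4, a wall-loosening enzyme, had 35.7, 35.0 and 124 CPM in ein2-5 and 35.8, 26.4 and 25.5 CPM in wild type (log2 FC 1.15 ± 0.34, adjusted p = 0.028), and its call was lost without single libraries (adjusted p = 0.71 without ein2-5 replicate 3, 0.11 without wild-type replicate 2 and 0.12 without wild-type replicate 3). Mitochondrial dysfunction genes rose in 5 of 18 cases (median 0.53), and in 0 without ein2-5 replicate 3 or without wild-type replicate 2 or 3. AOX1A (AT3G22370), the alternative oxidase, had 49.2, 52.5 and 75.3 CPM in ein2-5 and 59.5, 58.4 and 55.8 CPM in wild type (adjusted p = 0.94). Of 15 glutathione transferase genes 2 rose (median 0.29), or 0 without any 1 of those 3 libraries, 1 without ein2-5 replicate 2, 5 without ein2-5 replicate 1 and 3 without wild-type replicate 1.

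Of 20 jasmonate genes, 6 rose and 1 fell (median 0.26), and 2, 1 and 2 rose without ein2-5 replicate 3, wild-type replicate 2 and wild-type replicate 3. LOX2 (AT3G45140), the plastid lipoxygenase that starts jasmonate synthesis, had 647, 534 and 379.7 CPM in ein2-5 and 328, 260.2 and 269.7 CPM in wild type (log2 FC 0.86 ± 0.19, adjusted p = 0.0025). Here replicate 3 was the lowest ein2-5 library, and the difference without it was 1.04 ± 0.19. VSP2 (AT5G24770), a storage protein induced by jasmonate, had 237, 282 and 111 CPM in ein2-5 and 123, 100.2 and 96.5 CPM in wild type (log2 FC 0.98 ± 0.25, adjusted p = 0.0099), with an overlap through replicate 3, and its call was lost without other single libraries (adjusted p = 0.083 without ein2-5 replicate 2, 0.052 without wild-type replicate 2 and 0.059 without wild-type replicate 3). MYC2, the main transcription factor of the pathway, was listed at 0 in each of the 30 libraries. JAZ6 (AT1G72450), a repressor of the pathway, fell to 34.3, 34.0 and 44.7 CPM in ein2-5, against 54.1, 56.8 and 53.3 CPM in wild type (log2 FC -0.54 ± 0.11, adjusted p = 0.0018).

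**Figure D3:**
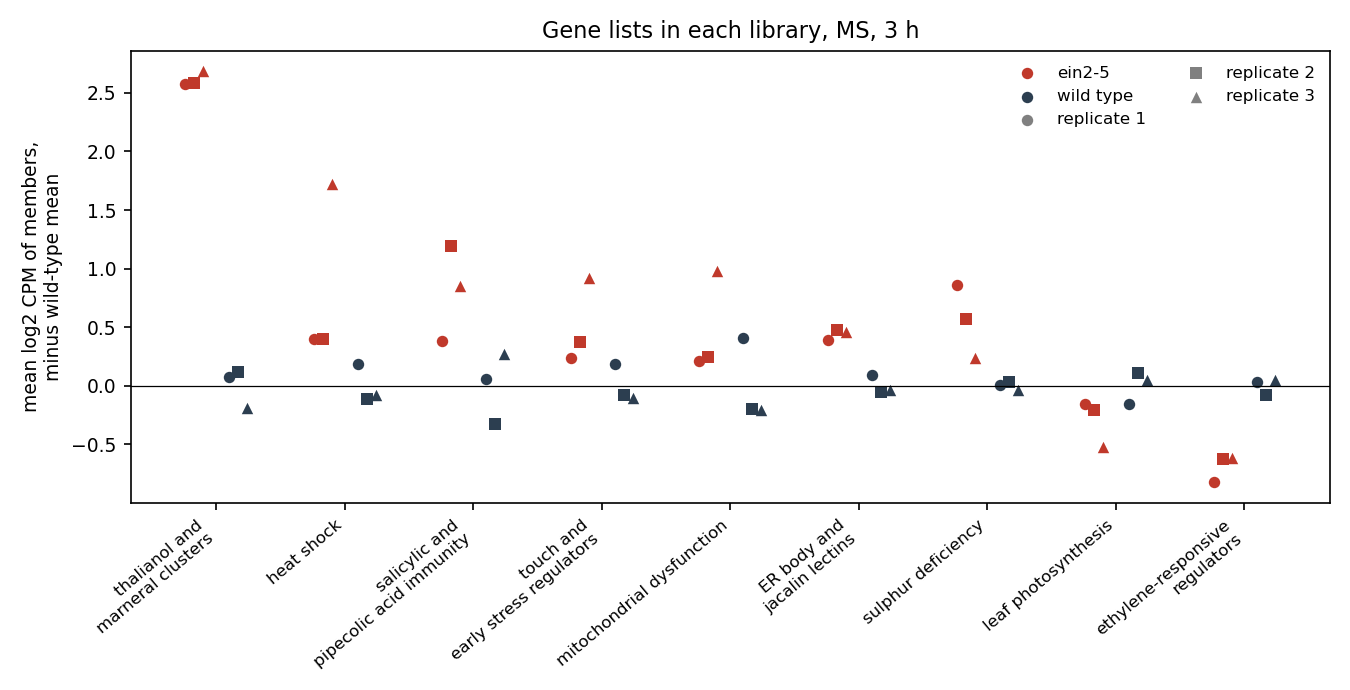
For 9 lists, each point is 1 library: the mean log2 CPM of the list's tested members minus the mean of the 3 wild-type libraries (y axis), with ein2-5 in red on the left and wild type in dark on the right, and the shape of a point gives the replicate. Heat shock stands at 0.40, 0.40 and 1.72 in ein2-5 replicates 1, 2 and 3, whereas the triterpene clusters stand at 2.57, 2.59 and 2.68.

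Leaf photosynthesis genes were lower in ein2-5, all 22 of them by sign, with a median of -0.29, and 16 were called. The call count was 4 without ein2-5 replicate 3, 3 without wild-type replicate 2, 4 without wild-type replicate 3 and 0 in the fit of only the 6 libraries. RBCS3B (AT5G38410), a small subunit of Rubisco, had 7439.7, 6911 and 6328 CPM in ein2-5 and 8305, 9361 and 9289 CPM in wild type (log2 FC -0.38 ± 0.06, adjusted p = 0.00013). LHCB2.1 (AT2G05100), a light-harvesting protein, had 3879, 3714 and 3211 CPM in ein2-5 and 4127, 4999 and 4603 CPM in wild type (log2 FC -0.35 ± 0.07, adjusted p = 0.0016). Each wild-type library was above each ein2-5 library for both genes, and replicate 3 was the lowest. The Rubisco subunit genes are near-identical and share read pairs, so their single values are uncertain. Summed over the list, ein2-5 had 122267, 117469 and 94227 CPM and wild type 123025, 145609 and 140331 CPM. Senescence regulators fell in 2 of 9 cases, or in 1 without ein2-5 replicate 1 or 3 or wild-type replicate 3. NAP (AT1G69490), a NAC factor that starts leaf senescence, had 0.821, 1.49 and 1.32 CPM in ein2-5 and 3.49, 3.2998 and 4.18 CPM in wild type (log2 FC -1.59 ± 0.24, adjusted p = 2.8e-05). Of 16 clock genes 4 fell and 0 rose (median 0.01), or 1 fell without ein2-5 replicate 3 and 2 without wild-type replicate 2 or 3. The call that held without ein2-5 replicate 3 was LNK2 (AT3G54500), a morning coactivator that overlaps AT3G54490 and AT3G08405, with 245, 248 and 219 CPM in ein2-5 and 289, 311 and 295 CPM in wild type (log2 FC -0.33 ± 0.07, adjusted p = 0.0032).

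**Figure D4:**
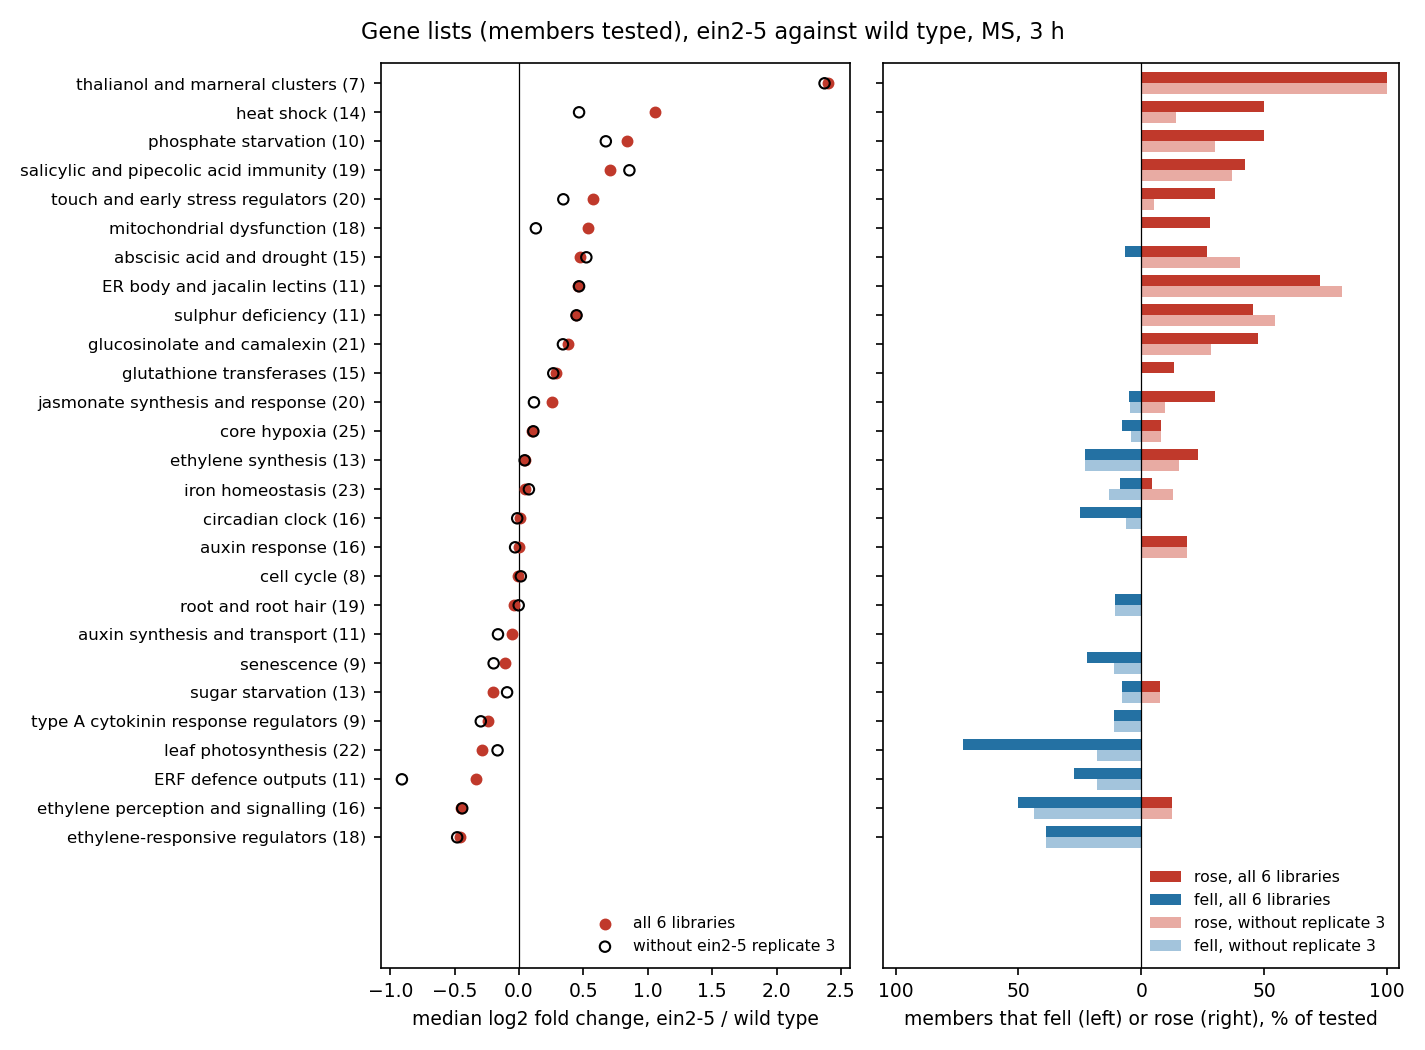
For each of 27 gene lists (members tested in brackets), the left panel gives the median log2 fold change of ein2-5 over wild type with all 6 libraries (filled) and without ein2-5 replicate 3 (open), and the right panel the percentage of members that fell or rose with (dark) and without it (pale). Thalianol and marneral genes lie at 2.40 and 2.37, heat shock at 1.06 and 0.47, and the ethylene-responsive regulators at -0.46 and -0.48.

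Among nutrient lists, those for sulphur and phosphate held risers and no fallers. Of 11 sulphur deficiency genes 5 rose and 0 fell (median 0.44), or 6 without ein2-5 replicate 3 and 4 to 5 without another library. The fit of only the 6 libraries, in which 447 of 20383 genes were higher, gave 3 risers for sulphur and 5 for phosphate. For other lists it gave 4 for immunity, 6 for glucosinolate, 1 for touch, 2 for jasmonate and 0 for heat shock, mitochondrial dysfunction and glutathione transferase genes. SDI1 (AT5G48850), a marker of sulphur need, had 20.97, 16.3 and 14.3 CPM in ein2-5 and 4.34, 5.89 and 5.11 CPM in wild type (log2 FC 1.75 ± 0.22, adjusted p = 2.8e-06). APR1 (AT4G04610, which overlaps AT4G04614), which reduces activated sulphate, had 166, 149 and 133 CPM in ein2-5 and 112, 88.6 and 89.2 CPM in wild type (log2 FC 0.63 ± 0.10, adjusted p = 6.6e-05). LSU1 (AT3G49580) had 17.7, 15.1 and 3.33 CPM in ein2-5 and 3.69, 1.92 and 2.49 CPM in wild type (log2 FC 2.15 ± 0.47, adjusted p = 0.0026), so replicate 3 lay inside the wild-type range while the other ein2-5 libraries were several-fold above it. Of 10 phosphate starvation genes 5 rose and 0 fell (median 0.84), or 3 without ein2-5 replicate 3. IPS1 (AT3G09922), a noncoding RNA that answers phosphate need, had 3.74, 2.67 and 3.62 CPM in ein2-5 and 0.365, 0.0446 and 0.169 CPM in wild type (log2 FC 4.05 ± 0.95, adjusted p = 0.0049), and PHT1;1 (AT5G43350), a phosphate transporter whose reads are partly shared with its close copies, rose by 0.43 ± 0.11 on the log2 scale. Iron genes were called at about the background share, with 1 of 23 rising and 2 falling. Iron risers numbered 0 without ein2-5 replicate 1 or wild-type replicate 1 or 3 and 3 without ein2-5 replicate 3. Fallers numbered 0 without ein2-5 replicate 1, 3 without ein2-5 replicate 3 and 1 without ein2-5 replicate 2 or wild-type replicate 2 or 3. The ferritin FER1 (AT5G01600, which overlaps AT5G01595) had 181, 218 and 225 CPM in ein2-5 and 339.9, 324 and 397 CPM in wild type (log2 FC -0.76 ± 0.20, adjusted p = 0.013), a call lost without a single library (adjusted p = 0.054 without ein2-5 replicate 1 and 0.076 without wild-type replicate 3). None of the iron regulators BHLH38, BHLH39, BHLH100 and BHLH101 was called (adjusted p = 0.36 to 0.84).

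Among other hormones, 4 of 15 abscisic acid and drought genes rose and 1 fell (median 0.47), and 3 to 6 rose with 1 library left out. NCED3 (AT3G14440), the step that limits abscisic acid synthesis, had 6.98, 5.48 and 7.53 CPM in ein2-5 and 2.72, 2.76 and 1.94 CPM in wild type (log2 FC 1.43 ± 0.23, adjusted p = 7.6e-05). The phosphatase HAI1 rose by 1.56 ± 0.36 and RD29A, a drought and cold marker, by 0.47 ± 0.12 on the log2 scale. Of 16 auxin response genes 3 rose and 0 fell (median 0.00): GH3.5 (AT4G27260), which joins auxin to amino acids, had 23.64, 23.8 and 24.1 CPM in ein2-5 and 15.1, 14.4 and 15.4 CPM in wild type (log2 FC 0.67 ± 0.10, adjusted p = 4.6e-05). The libraries of each genotype were tight and did not overlap for NCED3 or GH3.5. Of 11 auxin synthesis and transport genes and 8 cell cycle genes none was called in edgeR's test. The cytokinin response regulator ARR7 (AT1G19050) was the 1 of 9 type A members to fall, with 9.15, 8.84 and 9.13 CPM in ein2-5 and 17.41, 16.4 and 12.1 CPM in wild type (log2 FC -0.76 ± 0.15, adjusted p = 0.00066). Sugar starvation genes split, with ASN1 (AT3G47340, which overlaps AT3G47341), an asparagine synthetase, at 74.2, 73.2 and 54.2 CPM in ein2-5 and 33.7, 37.99 and 38.2 CPM in wild type (log2 FC 0.88 ± 0.13, adjusted p = 2.7e-05) and TPS11 (AT2G18700) at a log2 FC of -0.56 ± 0.12 as the only calls among 13.

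Core hypoxia genes, which a flooded seedling is known to switch on, were called at a share near the background at 3 h in MS. Of 25 tested, 2 rose and 2 fell (median 0.10), and 1 to 3 rose and 1 or 2 fell with any 1 library left out. The receptor gene ETR2, described above, was 1 of the fallers. ADH1 (AT1G77120, which overlaps AT1G77122), alcohol dehydrogenase, had 264, 216 and 209.6 CPM in ein2-5 and 167, 258 and 257 CPM in wild type (log2 FC 0.02 ± 0.19, adjusted p = 0.98). HRE1 (AT1G72360, which overlaps AT1G72370), a hypoxia-induced ERF, had 14.4, 12.3 and 12.7 CPM in ein2-5 and 14.6, 17.2 and 15.5 CPM in wild type (log2 FC -0.26 ± 0.12, adjusted p = 0.17), and the oxygen sensor PCO1 (AT5G15120) had 19.9, 23.4 and 20.4 CPM in ein2-5 and 21.7, 24.4 and 25.3 CPM in wild type (log2 FC -0.16 ± 0.10, adjusted p = 0.34). The libraries of the genotypes overlapped for ADH1 and PCO1 and lay just apart for HRE1. SUS4 (AT3G43190), a sucrose synthase, was called higher, with 151, 129 and 163 CPM in ein2-5 and 98.3, 124 and 123 CPM in wild type (log2 FC 0.36 ± 0.09, adjusted p = 0.011), and the call was lost without 1 of 2 libraries (adjusted p = 0.094 without ein2-5 replicate 3 and 0.092 without wild-type replicate 1).

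The genotype difference at 3 h in MS was set beside that in the other conditions, each with its own ein2-5 and wild-type libraries. In untreated seedlings 4.33% of genes were called, after 3 h of AA 7.82%, after 24 h in MS 11.4% and after 24 h of AA 9.91%. Of the 2215 genes called here, 402 were called in the same direction in untreated seedlings (18.1% of those here and 43.6% of the 921 there), 867 after 3 h of AA (39.1% and 52.2% of 1662), 837 after 24 h in MS (37.8% and 34.6% of 2420) and 716 after 24 h of AA (32.3% and 34.0% of 2107). In all 5 conditions 187 genes were called in 1 direction, 89 higher and 98 lower in ein2-5. EIL1 was higher in each, with a log2 FC of 2.49 ± 0.15 in untreated seedlings, 2.67 ± 0.15 after 3 h in MS, 2.45 ± 0.15 after 3 h of AA, 1.98 ± 0.14 after 24 h in MS and 2.31 ± 0.15 after 24 h of AA. In the same order AT4G14290 had a log2 FC of 3.79 ± 0.14, 4.45 ± 0.14, 4.46 ± 0.14, 3.80 ± 0.14 and 3.94 ± 0.14, and BEE3 one of -1.67 ± 0.11, -2.52 ± 0.13, -1.89 ± 0.12, -1.97 ± 0.11 and -1.99 ± 0.11. ORA59 was lower at 3 h in both liquids, with a log2 FC of -1.39 ± 0.19 in MS and -1.64 ± 0.19 with AA, and after 24 h of AA (-0.77 ± 0.19). It stood at -0.48 ± 0.24 in untreated seedlings (adjusted p = 0.33) and -0.29 ± 0.20 after 24 h in MS (adjusted p = 0.42). The difference between 3 h in MS and untreated seedlings was not called for ORA59 (adjusted p = 0.13), and that between 3 h and 24 h in MS was (adjusted p = 0.03), but lost the call in 4 of 16 alternatives (highest adjusted p = 0.086).

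Whether the genotype difference itself changed was tested as an interaction in the same fit. Against untreated seedlings 313 genes differed (1.47%), with the genotype difference higher in MS at 3 h for 252 (1.19%) and lower for 61 (0.287%). Upper-quartile factors gave 185 higher and 110 lower of 295. Without ein2-5 replicate 3 the count was 181 (0.846%, with 0.743% higher), without wild-type replicate 2 or 3 it was 161 and 148, and without ein2-5 replicate 1 it was 543. The labels give each time a batch name, so treatment, time and batch cannot be told apart there. Of the 19 immunity genes 4 differed, all with the difference higher at 3 h, as did 3 of 11 sulphur deficiency genes, and both counts were the same without ein2-5 replicate 3. PHI-1 (AT1G35140), related to a phosphate-induced gene of tobacco, changed sign, with a log2 FC of 1.74 ± 0.37 at 3 h in MS and -1.61 ± 0.33 in untreated seedlings (difference 3.35 ± 0.50, adjusted p = 0.00024). Its level was 21.8 ± 16.6 CPM (SD) in ein2-5 and 6.47 ± 2.95 CPM in wild type after 3 h in MS, and 27.1 ± 3.57 CPM in ein2-5 and 82.7 ± 2.57 CPM in wild type without treatment. AT5G62130 rose more in MS (log2 FC 2.54 ± 0.10 against 1.19 ± 0.09 untreated, adjusted p = 2.7e-07).

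Against 3 h of AA, where time and batch label are the same, only 15 genes differed in edgeR's test (0.0706%), 9 higher and 6 lower, and RLE factors gave 9 higher and 11 lower of 20. The count was 13 (0.0607%) without ein2-5 replicate 3, 4 without ein2-5 replicate 1, 7 without wild-type replicate 2 and 4 without wild-type replicate 3, and DESeq2 gave 60. None of the 15 was a member of the 27 lists, but these held only 407 of the 21256 genes tested, so this is not read as a result. GDPD2 (AT5G41080), a phosphodiesterase of lipid turnover, had a log2 FC of 0.82 ± 0.14 in MS and -0.34 ± 0.12 with AA (adjusted p of the difference = 0.0074), and GDH2 (AT5G07440), a glutamate dehydrogenase, one of 0.30 ± 0.08 and -0.44 ± 0.08 in the same order (adjusted p = 0.0024).

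Against 24 h in MS 375 genes differed (1.76%), 128 with the genotype difference higher (0.602%) and 247 with it lower (1.16%) at 3 h. Since each time has its own batch name, time and batch cannot be told apart in this comparison either. The count was 399 (1.86%) without ein2-5 replicate 3 but 241 and 212 without wild-type replicate 2 and 3. In the core hypoxia list 20 of 25 members rose and 1 fell in ein2-5 at 24 h, beside 6.74% and 4.65% of all genes. For 9 the genotype difference was lower at 3 h than at 24 h. After 3 h of AA 11 members rose and 2 fell, where 7.82% of all genes were called. In untreated seedlings 5 rose and 1 fell (4.33% of all genes called), and after 24 h of AA 6 rose and 1 fell (9.91%). The genotype difference at 3 h in MS was lower than in untreated seedlings for 2 members and differed from that at 3 h of AA for 0. SUS4 had a log2 FC of 0.36 ± 0.09 at 3 h and 1.31 ± 0.10 at 24 h (adjusted p of the difference = 6e-05), with 140.3 ± 10.4 CPM (SD) in ein2-5 and 56.5 ± 2.17 CPM in wild type at 24 h. HRE1 had a log2 FC of -0.26 ± 0.12 at 3 h and 0.49 ± 0.12 at 24 h (adjusted p = 0.016, with the call lost in 2 of 16 alternatives). For 6 of 13 sugar starvation genes the difference was also lower at 3 h and for 1 higher. The opposite held for NCED3, which had a log2 FC of 1.43 ± 0.23 at 3 h and -0.31 ± 0.23 at 24 h (adjusted p = 0.0024), and for the tonoplast channel gene TIP2;3, with 0.88 ± 0.19 and -1.12 ± 0.19 (adjusted p = 4.1e-05).

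**Figure D5:**
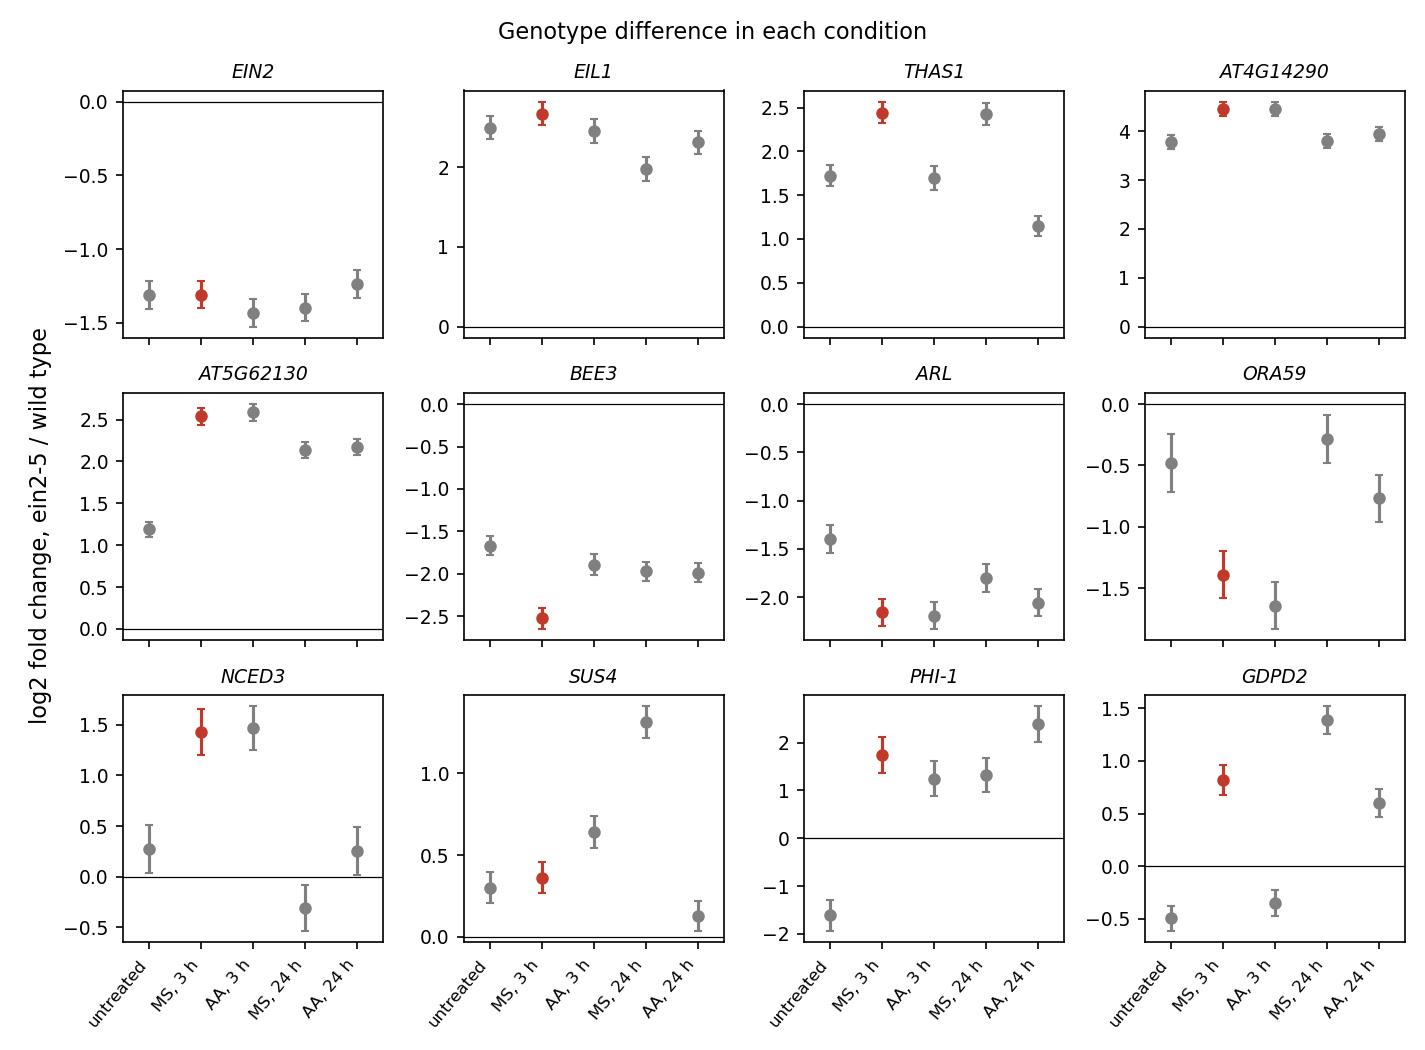
For 12 genes, points give the log2 fold change of ein2-5 over wild type (y axis, bars are SE of the fit, 3 libraries per group) in untreated seedlings, after 3 h in MS (red), after 3 h of AA, after 24 h in MS and after 24 h of AA. EIL1 and AT4G14290 are above 0 in every condition, BEE3 and ARL below 0, and NCED3 stands at 1.43 after 3 h and -0.31 after 24 h in MS.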

How the data were processed

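RNA of whole seedlings was selected by poly(A) and sequenced from both ends (Illumina NovaSeq X Plus), per the labels' protocols. The authors deposited 1 matrix of expected counts for 27655 genes in 30 libraries. Its file header records featureCounts 2.0.3, which counted read pairs without regard to strand and split pairs that mapped to several places, so 6.31% of the deposited counts were not whole. The build was TAIR10, and the tools were HISAT2 and SAMtools, featureCounts, and both DESeq2 and DESeq, per the submitters' processing notes. Near-identical genes share read pairs, so their values are uncertain.

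Counts were rounded to whole numbers. The filterByExpr function (minimum count 10) kept 21256 genes. All 10 groups of 3 libraries were fitted together in edgeR 4.0.16 (R 4.3.3) with TMM factors of 0.958 to 1.06 and quasi-likelihood tests, adjusted by the Benjamini-Hochberg method over all genes tested. The biological coefficient of variation was 11.2%. Single-gene levels are CPM of the counts. The code was tested on simulated data. Alternatives were other scaling factors, filters and thresholds, each library of the comparison left out, the 6 or 12 compared libraries alone, the replicate number as a block, limma 3.58.1 (voom with sample weights) and DESeq2 1.42.0. Figures were drawn with matplotlib 3.10.9.

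Genes were named by rule. Up to 12 per direction had the largest changes among genes called with and without ein2-5 replicate 3 that had a mean of 5 CPM or more in the group with the higher level and no overlap of libraries. To these were added up to 6 members per list by adjusted p, a set of fixed pathway genes, and up to 6 per direction for each interaction test. The lists, the fixed genes and the rule were chosen with earlier results of these data known. Gene names, positions and promoters come from RefSeq TAIR10.1, in which 27445 of the identifiers were found.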

Additional observations from a re-analysis of the deposited data

Results flagged for a closer look

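The items below are genes whose difference between ein2-5 and wild type at 3 h in MS was not the same as in another condition, by the interaction term of the fit over all libraries (edgeR's quasi-likelihood test, adjusted over all genes tested). Each value is the log2 FC of ein2-5 over wild type at 3 h in MS minus that in the other condition.

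Against untreated seedlings the difference was higher at 3 h in MS for TAT3 (5.41), TPS04 (5.06), PHI-1 (3.35), SAG13 (3.29), ABCG40 (2.96), TCH4 (2.81), AT1G26390 (2.40), AT5G62130 (1.35) and THAS1 (0.72). It was lower for AT5G62360 (-2.11), AT3G09450 (-1.64), AT4G16146 (-1.52), AT1G15125 (-1.35, a gene that overlaps AT1G15120), OEP6 (-1.18), AT4G21870 (-1.16), AT5G62280 (-0.95), BEE3 (-0.86), ARL (-0.76) and HRE1 (-0.70). Without ein2-5 replicate 3 the adjusted p was 0.13 for TPS04, 0.064 for THAS1, 0.073 for AT5G62360, 0.076 for AT4G16146, 0.13 for AT5G62280, 0.075 for ARL and 0.068 for HRE1. Of 16 alternatives, a threshold of 0.01 among them, the call was lost in 9 for ARL, 8 for AT5G62280, 6 each for HRE1, AT5G62360 and AT4G16146, 5 for THAS1, 4 for AT1G26390, 1 each for SAG13, TAT3 and ABCG40, and 6 of 15 for TPS04.

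Against 3 h of AA the difference was higher in MS for GDPD2 (1.16), XTH19 (1.13), CYP712A1 (0.84, which overlaps AT2G42247), HRS1 (0.84), AT4G15610 (0.82) and GDH2 (0.74). It was lower for LEA3 (-1.16), UGT73C6 (-1.02, which overlaps AT2G36792), AT2G15020 (-0.92), AT5G48530 (-0.91), AT2G18980 (-0.81) and ChiC (-0.71). Without ein2-5 replicate 3 the adjusted p was 0.12 for XTH19, 0.15 for AT4G15610, 0.053 for LEA3, 0.095 for AT2G15020 and 0.053 for AT5G48530. The call was lost in 10 of 16 alternatives for AT5G48530, 8 each for XTH19, CYP712A1 and AT4G15610, 7 each for UGT73C6 and AT2G15020, 6 for LEA3, 5 for HRS1, 4 for AT2G18980 and 3 for ChiC, and in 0 for GDPD2 and GDH2.

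Against 24 h in MS the difference was higher at 3 h for AT1G07400 (2.38), TIP2;3 (2.003), PXMT1 (1.84), NCED3 (1.74), HSP90.1 (1.51) and AT3G09450 (1.44). It was lower at 3 h for AT1G52120 (-4.04), AT5G41280 (-3.08), AT5G22555 (-3.08), CYP71A20 (-2.98), AT5G41290 (-2.73), AT2G15880 (-2.71), ORA59 (-1.11), SUS4 (-0.95), HRE1 (-0.75) and PCO1 (-0.56). Without ein2-5 replicate 3 the adjusted p was 0.11 for AT1G07400, 0.16 for HSP90.1 and 0.058 for PCO1. The call was lost in 7 of 16 alternatives for HSP90.1, 6 for PCO1, 5 each for AT1G07400 and PXMT1, 4 for ORA59, 3 for AT5G41290 and 2 each for HRE1 and AT3G09450.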

How the results depend on the processing

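At an adjusted p under 0.01, 1094 genes differed between ein2-5 and wild type, and with only the 6 compared libraries 771 did, 251 of them by at least 2-fold. Other scaling factors, filters and tools gave 2124 to 2677. With 1 library left out the counts ran from 1260 to 2380, and from 314 to 466 at 2-fold. The interaction with untreated seedlings (313) gave 109 at an adjusted p under 0.01, 87 with only the libraries compared, 536 in DESeq2 and 148 to 543 with 1 library left out. That with 3 h of AA (15) gave 3, 5, 60, and 4 to 18 in the same order, 40 in limma voom with sample weights, and 8 with the replicate block. That with 24 h in MS (375) gave 134, 221, 576 and 212 to 399 in the same order, and 694 in limma voom. The split of calls into higher and lower under RLE factors, DESeq2 and a filter of 1 CPM is given with the total above.

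The labels do not say whether same-numbered samples were grown or handled together. Same-numbered ein2-5 and wild-type libraries at 3 h in MS deviated from their group means with correlations of -0.15, 0.04 and -0.10. With so few libraries, and ein2-5 replicate 3 standing apart, these values cannot decide whether the samples were paired. With the replicate number as a block 2102 genes were called, 398 of them by at least 2-fold. The interactions with untreated seedlings and with 24 h in MS then gave 277 and 332.

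The 151 genes followed were the rule's largest changes, the fixed genes, list members that were called, and ETR1, EIN4, ERS2 and CTR1. That 132 of them were called therefore follows largely from this choice. Of the 132, 73 were called under all 16 alternatives, 59 lost the call in at least 1, and 0 changed sign. The largest changes had been picked as called without ein2-5 replicate 3, which is 1 of the 16 alternatives. Genes that were not called changed sign as follows. ADH1 had a log2 FC of -0.0041 with RLE factors, -0.0031 with a filter of 1 CPM, -0.0024 with only the libraries compared and -0.0042 in DESeq2. AOX1A had -0.13 in limma voom and -0.19 to 0.14 with 1 library left out. PR1 had -0.054 with the replicate block and -3.10 to 1.70 with 1 library left out. ADH1 with 1 library left out ran from -0.17 to 0.12. The other ranges with 1 library left out were -0.021 to 0.20 for EDF1, -0.068 to 0.23 for HLS1, -0.068 to 0.49 for BHLH100 and -0.24 to 0.12 for EIN4, which was at 0.026 without ein2-5 replicate 2. With 3 libraries a group, genes with few counts are limited by depth: PDF1.2C, for instance, was under 4 CPM throughout.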

Other observations

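A few list members were too low to measure. ACS9 had 0 counts over the 3 ein2-5 libraries and 2 over the 3 wild-type libraries, HSP22.0 had 5 and 0, and ERF96 had 3 and 0, so no fold is given. SAG12, a late senescence marker, had 0 counts in both groups.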
